A study of Mus musculus with 2 samples.

Results

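The cells described here are the *Tnc*/*Inhba* cells of the early rib callus, the connective cells in which 5 genes were the leading marker set: *Tnc*, *Inhba*, *Aldh1a3*, *Timp1* and *Loxl2*. They numbered 1900 of the 7209 candidate connective cells and of the 21259 cell barcodes in both libraries, 980 of them from control and 920 from *Smo* cKO callus. The callus was taken at 4 days post injury (dpi), after a resection of 3 mm of rib, from mice 8 to 12 weeks old that had received 3 tamoxifen injections before surgery. The control library came from *Sox9*:CreER;*R26*:tdT;*Smo*f/+ mice and the *Smo* cKO library from *Sox9*:CreER;*R26*:tdT;*Smo*f/f mice, with the cells of 3 animals pooled in each. Both groups therefore carried the CreER driver, the tdTomato reporter and at least 1 floxed *Smo* allele, and the control mice were heterozygous. The driver is active in the *Sox9* lineage, so that loss of *Smo*, the transducer of the Hedgehog signal, was aimed at cells of that lineage and not at the callus as a whole. Genotype and library cannot be told apart, since each genotype was sequenced as 1 library of pooled animals.

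Candidate cells had at least 1000 unique molecular identifiers (UMIs, each a counted transcript molecule), under 10% of UMIs on mitochondrial genes and at least 1% of UMIs on *Col1a1*, *Col1a2* and *Col3a1*. They had 0 UMIs of *Ptprc*, *Pecam1*, *Myog* and *Rgs5*, which mark leukocytes, endothelium, differentiating muscle and pericytes. They also had fewer than 5 UMIs in total of the cell-cycle genes *Birc5*, *Cdk1*, *Ube2c* and *Ccna2*. The mean z-score of the 5 genes had to be above 0.3 and higher than the means of 2 other sets, which define *Sfrp4*/*Eln* cells (*Sfrp4*, *Eln*, *Col14a1*, *Cilp*, *Sfrp1*; 1232 control and 818 *Smo* cKO cells) and *Fmod*/*Acan* cells (*Fmod*, *Acan*, *Col11a1*, *Tnn*, *Comp*; 661 and 492 cells). These are together called the other connective cells. Since the cells were chosen by their own expression, every comparison with the other connective cells is a description without a test. With 1 library per genotype there is also no test between genotypes, and the 95% intervals given cover counting error only. Paired values below give control first and *Smo* cKO second.

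Fibroblasts that enter a wound lay down a provisional matrix, contract it and signal to the cells around them. Tenascin-C, the product of *Tnc*, is a large matrix glycoprotein made at sites of injury, and activin A, the dimer of the *Inhba* product, is a ligand of the TGF-beta family that acts through SMAD proteins. Such cells often make smooth muscle actin and are then called myofibroblasts.

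The markers *Tnc*, *Inhba* and *Timp1* and the contractile gene *Acta2* are shown by the 250 bases before their RefSeq transcription start (GRCm38.p6), with matches to searched motifs in capitals. The letters searched on both strands were TGANTCA for AP-1, GGAATG for TEAD, CAGACA for SMAD, ACGTG for HIF, TATAAA for the TATA box, and the strict form of the CArG box of SRF. The *Tnc* window is chr4:64047016-64047265 (minus strand), that of *Inhba* is chr13:16011601-16011850 (plus strand), that of *Timp1* is chrX:20869916-20870165 (plus strand) and that of *Acta2* is chr19:34255374-34255623 (minus strand).
Tnc: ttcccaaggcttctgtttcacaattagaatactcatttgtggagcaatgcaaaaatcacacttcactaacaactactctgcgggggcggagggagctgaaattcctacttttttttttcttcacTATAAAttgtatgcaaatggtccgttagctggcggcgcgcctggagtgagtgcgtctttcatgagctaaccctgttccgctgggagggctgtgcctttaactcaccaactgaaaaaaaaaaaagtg
Inhba: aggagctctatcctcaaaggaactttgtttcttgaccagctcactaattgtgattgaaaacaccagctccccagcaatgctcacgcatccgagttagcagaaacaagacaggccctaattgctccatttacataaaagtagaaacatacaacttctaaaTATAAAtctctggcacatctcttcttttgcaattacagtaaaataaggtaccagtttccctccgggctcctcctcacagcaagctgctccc
Timp1: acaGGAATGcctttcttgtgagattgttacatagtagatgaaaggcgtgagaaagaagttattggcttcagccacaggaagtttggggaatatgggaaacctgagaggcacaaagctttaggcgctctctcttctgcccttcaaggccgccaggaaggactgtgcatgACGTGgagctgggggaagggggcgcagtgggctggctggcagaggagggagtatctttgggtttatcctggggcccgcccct
Acta2: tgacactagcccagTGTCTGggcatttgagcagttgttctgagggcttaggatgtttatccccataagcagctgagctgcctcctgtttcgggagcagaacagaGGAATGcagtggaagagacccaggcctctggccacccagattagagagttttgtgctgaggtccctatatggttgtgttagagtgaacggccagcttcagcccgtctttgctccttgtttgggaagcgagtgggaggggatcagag

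The capitals mark the TATA box letters in the *Tnc* window at -126 and in the *Inhba* window at -91, counted back from the start. In *Timp1* they mark the TEAD letters at -247 and the HIF letters at -82, and in *Acta2* the SMAD letters, here on the other strand, at -236 and the TEAD letters at -146. Of the 5 marker genes and the 15 most enriched genes named below, 13 of 20 had an entry in the promoter table. The TATA box letters were found in 5 of these 13 windows, against 13% of 27018 promoters, and the HIF letters in 4, against 16.6%. The SMAD letters were found in 3, against 17.1%, the TEAD letters in 2, against 12.6%, the AP-1 letters in 1, against 6.87%, and the strict CArG box in 0, against 1.40%. Forms that differ from the strict CArG box by a base were not counted, so that the last count does not show that such elements are absent from any of these windows. A match shows only that these letters stand in the window.

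In the GENCODE vM21 annotation of GRCm38, *Tnc* lies at chr4:63959785-64047015 (minus strand), *Inhba* at chr13:16011851-16031621 (plus) and *Aldh1a3* at chr7:66390890-66427517 (minus). *Timp1* lies at chrX:20870166-20874735 (plus), *Loxl2* at chr14:69609068-69695834 (plus) and *Acta2* at chr19:34241090-34255590 (minus). This *Acta2* start lies inside the window printed above, so that most of that window, the TEAD match included, falls within the gene by GENCODE and before it by RefSeq. UMIs were counted per gene, so that no value belongs to a single exon or transcript.

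The 5 marker genes, which the selection used, were abundant and nearly level between the libraries. In *Tnc*/*Inhba* cells *Tnc* stood at 1386 CPM (UMIs summed over the cells of a library and scaled to a total of 1000000) in control and 1463 CPM in *Smo* cKO callus, against 361 and 394 in the other connective cells. *Inhba* stood at 969 and 912 CPM, against 305 and 414. *Timp1*, which encodes an inhibitor of matrix metalloproteinases, was the most abundant marker at 2238 and 2200 CPM, against 987 and 1008. *Loxl2*, a lysyl oxidase that cross-links collagen, stood at 629 and 605 CPM, against 244 and 241. *Aldh1a3*, which makes retinoic acid from retinal, was the least abundant at 127 and 115 CPM, against 45.3 and 34.7.

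All 5 were lower in the *Fmod*/*Acan* than in the *Tnc*/*Inhba* cells of either library, and the order of the other sets differed by gene. *Tnc* was higher in *Fmod*/*Acan* cells (593 and 632 CPM) than in *Sfrp4*/*Eln* cells (182 and 222 CPM), while *Aldh1a3* was lower in *Fmod*/*Acan* cells (29.9 and 20.9 CPM) than in *Sfrp4*/*Eln* cells (57.2 and 44.8 CPM). In *Ptprc*-positive cells with little collagen, which should lack these genes, *Tnc* was at 75.4 and 125 CPM and *Aldh1a3* at 4.34 and 4.25 CPM. *Tnc* was detected in 99.3% and 99.6% of *Tnc*/*Inhba* cells, and in 26.0% and 27.6% of the *Ptprc*-positive cells, whose median depth was lower (3947 and 4103.5 UMIs against 13980 and 14624). After every cell was thinned to 1000 UMIs these shares became 66.1% and 70.0%, against 6.12% and 7.17%.

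A marker can be looked at in cells chosen without it. When *Tnc* was left out of the set, its log2 ratio over the other connective cells was 1.77 (control) and 1.68 (*Smo* cKO), against 1.94 and 1.89 with it. The ratio of *Inhba* went from 1.67 and 1.14 to 1.20 and 0.83 when it was left out. That of *Loxl2* went from 1.37 and 1.33 to 1.21 and 1.10, that of *Timp1* from 1.18 and 1.13 to 0.97 and 0.94, and that of *Aldh1a3* from 1.49 and 1.73 to 0.82 and 1.14. Each marker stayed higher in the cells chosen by the other 4. *Inhba* of the *Smo* cKO library, *Aldh1a3* of the control and *Timp1* of both were then under 2-fold. The markers were chosen together with earlier results of these data known. The cells chosen by the other 4 also included 86.7% to 92.7% of the original members. These ratios therefore describe the marker set and are not evidence independent of the rule.

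**Figure D1:**
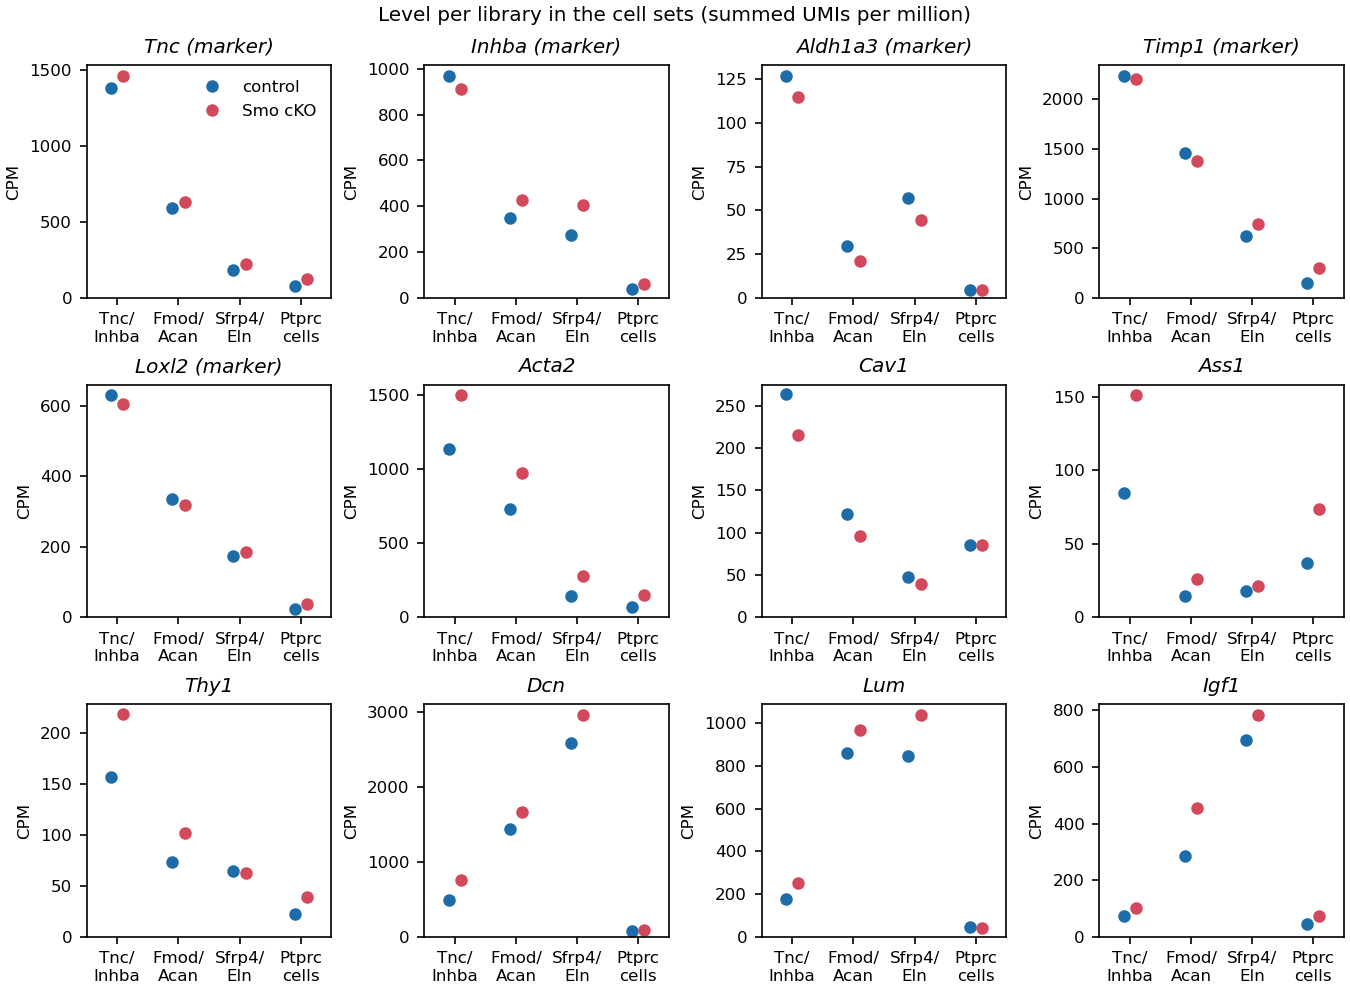
Level of the 5 markers and of 7 further genes in CPM (linear axis from 0) in *Tnc*/*Inhba*, *Fmod*/*Acan*, *Sfrp4*/*Eln* and *Ptprc*-positive cells, 1 point per library. *Acta2* was higher in *Tnc*/*Inhba* (1135 and 1497 CPM) than in *Sfrp4*/*Eln* cells (143 and 281 CPM). It was less than 2-fold higher than in *Fmod*/*Acan* cells (733 and 974 CPM). *Dcn*, *Lum* and *Igf1* were lowest of the connective sets in *Tnc*/*Inhba* cells.

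The cells were not uniform. Their score had a median of 0.722 (0.301 to 2.32) for control and 0.695 (0.30 to 2.56) for *Smo* cKO cells, with no gap at the threshold. All 5 markers were detected in 51.8% and 43.5% of them, 4 in 45.5% and 52.8%, and 3 in 2.65% and 3.70%. The next highest set was *Fmod*/*Acan* in 81.8% and 75.7% of cells. In 27 control and 25 *Smo* cKO cells the lead over the next highest set, whichever it was, lay under 0.1. Just inside the threshold (0.3 to 0.35), 58 control and 59 *Smo* cKO cells had *Tnc* at 886 and 1300 CPM and *Inhba* at 293 and 354 CPM. Just outside it (0.25 to 0.3), 52 and 61 cells had *Tnc* at 792 and 1033 CPM and *Inhba* at 325 and 283 CPM. These genes set the score, so that their levels beside the threshold only describe it.

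Genes outside the rule differed in how they followed the score. *Cav1*, the coat protein of caveolae, stood at 209, 266 and 324 CPM in control cells with scores of 0.3 to 0.6, 0.6 to 1.0 and over 1.0, and at 162, 215 and 292 CPM in *Smo* cKO cells. *Igf1*, an insulin-like growth factor, went the other way, at 104, 72.8 and 36.1 CPM in control and 135, 100 and 59.7 CPM in *Smo* cKO cells. *Cxcl12*, a chemokine made by stromal cells, also declined, from 136 through 92.3 to 57.2 CPM and from 141 through 119 to 67.2 CPM. *Acta2* showed no such order, at 1249, 1028 and 1150 CPM in control and 1450, 1566 and 1454 CPM in *Smo* cKO cells. The median depth also differed between these classes, from 13094 to 15917 UMIs and from 13761 to 16174.5 UMIs, and its part in these orders was not tested.

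Members whose next highest set was *Sfrp4*/*Eln* or *Fmod*/*Acan* also differed. *Igf1* was at 209 and 218 CPM in the former and 45.4 and 68.6 CPM in the latter. *Acta2* was at 847 and 1116 CPM in the former and 1192 and 1608 CPM in the latter.

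The fibroblast name was checked against a list of 10 fibroblast genes. Of these, 9 were compared with the other connective cells, 1 was at least 2-fold higher in both libraries (*Thy1*) and 2 lower (*Dcn* and *Lum*), against 1.39% and 4.41% of all genes, with medians of -0.25 and -0.39. *Prrx1*, a transcription factor of limb and body wall mesenchyme, stood at 239 and 250 CPM, near the 252 and 263 CPM of the other connective cells and above the 17.4 and 34.3 CPM of *Ptprc*-positive cells. *Pdgfra*, a growth factor receptor of fibroblasts, stood at 88.4 and 76.6 CPM, against 150 and 133. *Thy1*, a surface glycoprotein of many fibroblasts, was higher, at 156 and 218 CPM against 68.3 and 79.2.

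The proteoglycans of settled fibroblasts were low. *Dcn* (decorin) stood at 489 and 762 CPM, against 2083 and 2410, and *Lum* (lumican) at 177 and 251 CPM, against 853 and 1011. The 3 collagen genes made up a median of 2.53% and 2.38% of UMIs, against 3.83% and 3.6% in the other connective cells. The cells are therefore called by their marker genes below, not by the name activated fibroblast.

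Over all genes, 2516 reached 50 CPM on the higher side in both libraries. Of these, 35 were at least 2-fold higher than in the other connective cells in both libraries (1.39%), which includes the 5 markers, and 111 were at least 2-fold lower (4.41%), which includes 8 markers of the other sets. The ratios used the same cells as the rule, so these counts describe the selection. The median gene lay at a log2 ratio of 0.16 (control) and 0.13 (*Smo* cKO), and with the ratios centred on it 17 genes in place of 35 were at least 2-fold higher and 139 in place of 111 lower. With the range of 200 to 2000 genes the counts were 20 and 56, with 12 and 34 of the genes shared.

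Outside the rule, the highest ratio was that of *Ass1*, an enzyme of arginine synthesis, at 84.5 and 152 CPM against 16.6 and 23.1, or 2.35 (95% interval 2.16 to 2.53) and 2.71 (2.54 to 2.88) on the log2 scale. Ranked by the smaller of the ratios in both libraries, *Cav1* was next, at 264 and 216 CPM, against 80.2 and 63.4. *Acta2*, smooth muscle actin, was the most abundant of the 15, at 1135 and 1497 CPM against 400 and 572, with log2 ratios of 1.5 (1.46 to 1.54) and 1.39 (1.35 to 1.43). *Actg2*, an enteric smooth muscle actin, stood at 60.4 and 57.8 CPM, against 19.8 and 23.5. *Pdlim1* and *Tes*, which code for LIM proteins of the actin cytoskeleton, had ratios of 1.40 and 1.90, and of 1.57 and 1.19. *Tubb2b*, a tubulin, had ratios of 1.38 and 1.10.

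*Col5a3*, a chain of fibrillar type V collagen, stood at 640 and 502 CPM, against 255 and 189. *Slc16a3*, which exports lactate, had log2 ratios of 1.38 and 1.23, *Bcat1*, which transaminates branched-chain amino acids, 1.31 and 1.24, and *Fdps*, of the isoprenoid pathway, 1.15 and 1.12. *Thy1* had ratios of 1.19 and 1.46, *Lbh*, a transcription cofactor, 1.75 and 1.46, *Glipr1* 1.65 and 1.90, and *Zpr1*, a zinc finger protein, 1.31 and 1.31. Of the 15 genes, 7 stayed at least 2-fold higher under each setting run for them, which left no marker out of the set (*Ass1*, *Cav1*, *Glipr1*, *Lbh*, *Acta2*, *Slc16a3* and *Tes*).

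In *Ptprc*-positive cells, 6 of the 15 genes were above the other connective cells in both libraries (*Ass1*, *Cav1*, *Glipr1*, *Slc16a3*, *Tes* and *Zpr1*). *Glipr1* stood there at 51.6 and 71.5 CPM, against 53.6 and 62.4 CPM in *Tnc*/*Inhba* cells. *Slc16a3* stood at 65.7 and 70.1 CPM, against 87.6 and 104, and *Ass1* at 36.9 and 73.6 CPM. The part of RNA from *Ptprc*-positive cells in these ratios was not tested.

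These ratios were not the same against each neighbour. *Actg2* was at 40.3 and 45.8 CPM in *Fmod*/*Acan* cells but at 4.1 and 7.4 CPM in *Sfrp4*/*Eln* cells, and *Acta2* at 733 and 974 but 143 and 281 CPM. *Ass1* was low in both sets, at 14.7 and 26.1 CPM and at 18.1 and 21.0 CPM.

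Among genes outside the rule, the lowest ratio was that of *Ibsp*, bone sialoprotein, at 4.06 and 17.3 CPM against 110 and 192. It came from *Fmod*/*Acan* cells (251 and 454 CPM), since *Sfrp4*/*Eln* cells held 1.52 and 1.97 CPM. *Igf1* stood at 72.6 and 102 CPM, against 517 and 646, a log2 ratio of -2.83 (-2.93 to -2.74) and -2.66 (-2.74 to -2.58). With the range of 200 to 2000 genes its ratios were -1.58 and -0.94. The matrix genes *Abi3bp*, *Prelp* and *Col8a2* had ratios from -3.21 to -2.50 over both libraries. *C3*, complement component 3, and *Lbp*, which binds lipopolysaccharide, had ratios of -3.03 and -2.64, and of -3.47 and -2.52. *Fgl2*, *Fxyd6* and *1500015O10Rik* completed the 10 lowest, between -3.23 and -2.70.

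**Figure D2:**
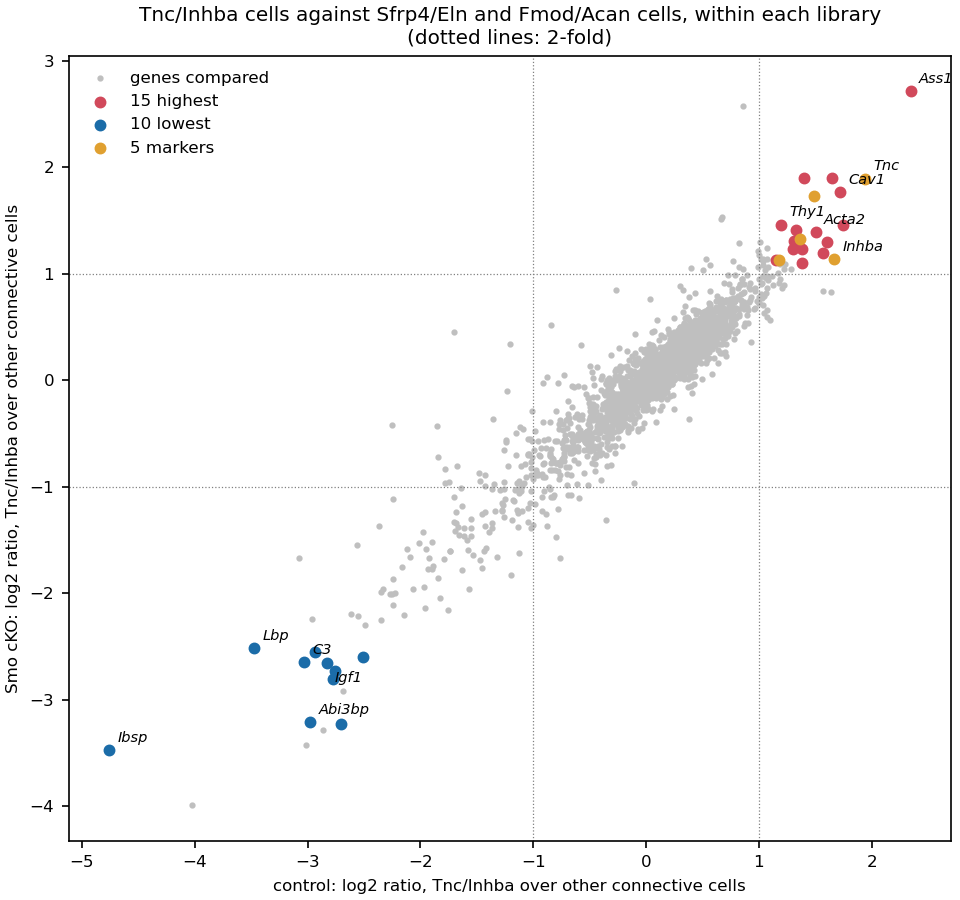
Log2 ratio of each of 2516 genes in *Tnc*/*Inhba* over the other connective cells, control on the x axis and *Smo* cKO on the y axis, with the 15 highest and 10 lowest genes outside the rule and the 5 markers in color. *Ass1* lies at 2.35 and 2.71 and *Ibsp* at -4.76 and -3.47, and the dotted lines mark 2-fold.

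Of 12 myofibroblast genes, 9 reached the CPM minimum, 1 was at least 2-fold higher in both libraries (*Acta2*) and 0 were lower, against 1.39% and 4.41% of all genes compared, with a list median of 0.5 (control) and 0.11 (*Smo* cKO). Against *Fmod*/*Acan* cells alone the log2 ratios of *Acta2* were 0.63 and 0.62, under 2-fold. *Tpm2*, a tropomyosin, had ratios of 1.04 and 0.98 over the other connective cells, and *Tagln*, an actin-binding protein of smooth muscle, 1.01 and 0.73. *Postn* (periostin), a matrix protein of activated fibroblasts, had ratios of -0.53 and -0.13, and *Cthrc1*, a secreted collagen-repeat protein, -0.15 and -0.36. *Fap*, a surface protease of activated fibroblasts, stood at 24.3 and 28.2 CPM, under the minimum.

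Of 20 genes of the activin and TGF-beta axis, 12 were compared, 1 was higher (*Inhba*, through which the cells were chosen) and 1 lower (*Ltbp1*, which binds latent TGF-beta), against 1.39% and 4.41% of all genes, with medians of -0.01 and 0.05. Outside the rule the list thus held 0 higher genes. Among the ligands, *Tgfb1* had ratios of 0.72 and 0.50 and *Tgfb3* -0.98 and -1.16. The activin antagonist *Fst* stood at 40 and 20 CPM, against 82.6 and 33.5, and the activin receptors *Acvr1b*, *Acvr2a* and *Acvr2b* at 1.5 to 9.45 CPM in the *Tnc*/*Inhba* cells, none reaching the minimum in both libraries.

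Of 16 adhesive matrix and integrin genes, 14 were compared, 2 were higher (*Itga5* and the marker *Tnc*, through which the cells were chosen) and 0 lower, against 1.39% and 4.41% of all genes, with medians, *Tnc* included, of 0.38 and 0.24. *Itga5*, a subunit of the fibronectin receptor, stood at 305 and 296 CPM, against 145 and 134. *Fn1*, fibronectin, stood at 1617 and 1422 CPM, with ratios of 0.45 and 0.29. *Spp1*, osteopontin, stood at 467 and 704 CPM, against 150 and 397. Of 13 genes for collagen cross-linking and hydroxylation, 12 were compared, 2 were higher (*Loxl3* and the marker *Loxl2*) and 0 lower, against 1.39% and 4.41% of all genes, with medians, *Loxl2* included, of 0.57 and 0.35. *Loxl3* stood at 104 and 146 CPM, against 50.5 and 69.0. *P4ha2*, a subunit of prolyl hydroxylase, had ratios of 0.87 and 0.90, while *Lox* had 0.13 and -0.08.

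Of 16 proteases and inhibitors, 10 were compared, 1 was higher (the marker *Timp1*) and 3 were lower, against 1.39% and 4.41% of all genes, with medians, *Timp1* included, of -0.13 and -0.45. The gelatinase *Mmp2* stood at 229 and 197 CPM, against 662 and 616, its inhibitor *Timp2* at 337 and 405 CPM, against 753 and 824, and the collagenase *Mmp13* at 29.3 and 46.5 CPM, against 91.2 and 93.7. Of 15 retinoid genes, 2 were compared, 1 was higher (*Aldh1a3*, a marker) and 0 lower, against 1.39% and 4.41% of all genes. *Crabp2*, which carries retinoic acid, stood just under the minimum at 46.9 and 46.2 CPM, against 19.8 and 18.4.

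Of 17 hypoxia and glycolysis genes, 13 were compared, 2 were at least 2-fold higher (*Pgk1* and *Ero1l*) and 0 lower, against 1.39% and 4.41% of all genes. The list medians were 0.77 and 0.89, against 0.16 and 0.13 over all genes. *Pgk1*, phosphoglycerate kinase, stood at 413 and 562 CPM, against 197 and 238. *Eno1*, enolase, had ratios of 0.99 and 1.07, *Gapdh* 0.93 and 0.91 and *Ldha*, lactate dehydrogenase, 0.76 and 0.83. *Vegfa*, an angiogenic factor, stood at 141 and 131 CPM, against 74.3 and 77.3. All but *Hk2*, with ratios of -0.68 and -0.36, and *Ndrg1*, with -0.52 and -0.16, lay above 0, most of them by less than 2-fold.

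Of 12 inflammatory genes, 10 were compared, 0 were higher and 0 lower, against 1.39% and 4.41% of all genes, with medians of -0.25 and 0.37. *Cxcl5*, a neutrophil chemokine, had ratios of 0.86 and 2.57, and *Il11*, a cytokine of fibroblasts, stood at 58.9 and 39.4 CPM, against 13.9 and 10.2, with the *Smo* cKO value under the minimum. Of 15 growth factors, 8 were compared, 0 were higher and 2 lower (*Igf1* and *Cyr61*), against 1.39% and 4.41% of all genes, with medians of 0.08 and 0.10. *Pdgfa*, a ligand of *Pdgfra*, stood at 204 and 229 CPM, against 90.1 and 121.

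Of 11 immediate early genes, 10 were compared, 5 were at least 2-fold lower (*Fos*, *Fosb*, *Jun*, *Egr1* and *Atf3*) and 0 higher, against 4.41% and 1.39% of all genes, with medians of -1.22 and -1.11. *Fos* stood at 69.4 and 154 CPM, against 425 and 707. These genes also respond to tissue digestion, and the part of digestion in the difference was not tested. Of 14 skeletal factors, 5 were compared, 0 were higher and 3 lower, against 1.39% and 4.41% of all genes, with medians of -1.28 and -1.22. These were *Ibsp*, the tendon factor *Scx* (61.2 and 78.3 CPM, against 149 and 182) and the tendon gene *Tnmd*, while *Runx2*, a regulator of bone formation, had ratios of 0.82 and 0.67. *Sox9* itself stood at 43.8 and 40.2 CPM, against 46.7 and 46.7.

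**Figure D3:**
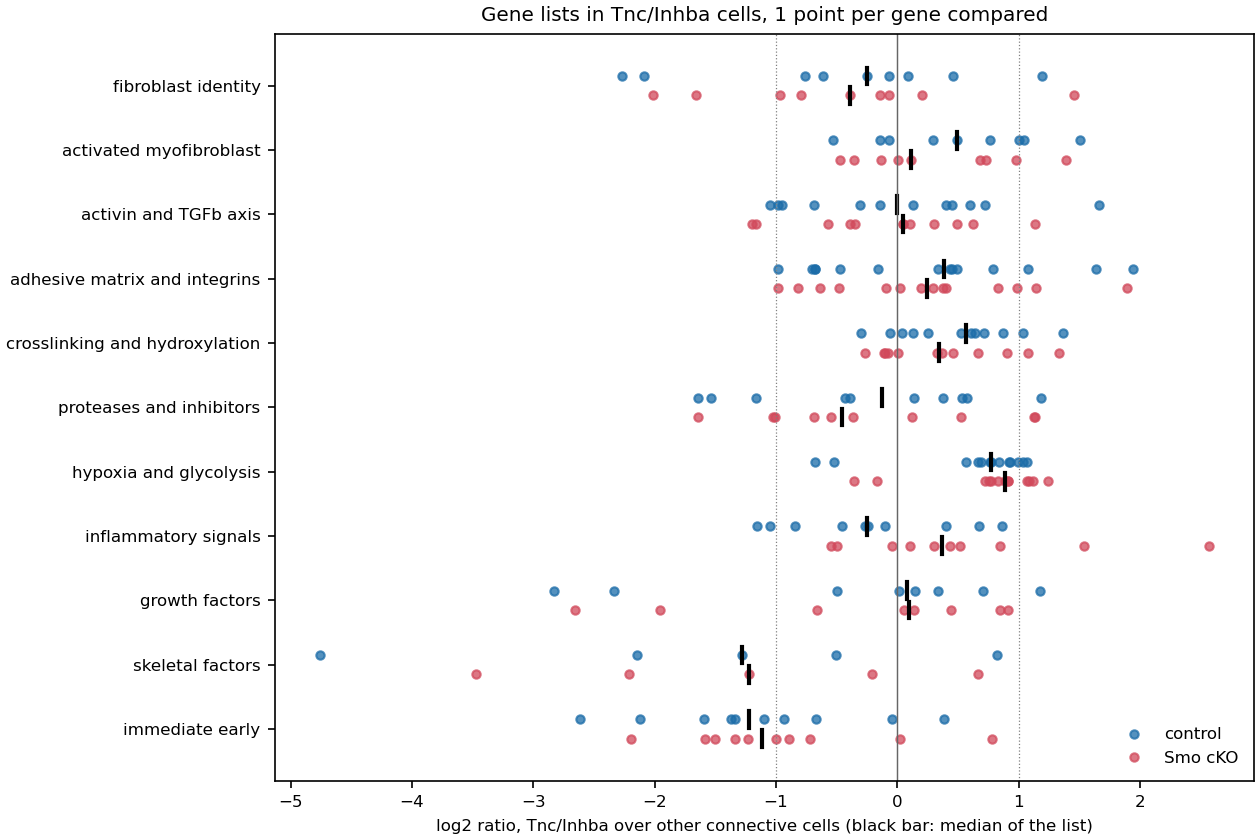
Log2 ratio in *Tnc*/*Inhba* over the other connective cells for the genes of 11 lists that reached 50 CPM, 1 point per gene and library, with the list median as a black bar and 2-fold as dotted lines. Of the lists drawn, the hypoxia and glycolysis medians (0.77 and 0.89) lie highest and the skeletal and immediate early medians lowest, and the retinoid list, with 2 genes compared, is not drawn.

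Markers of other cell types were summed by list and set beside the *Ptprc*-positive cells. The 8 macrophage genes summed to 137 and 194 CPM, against 7042 and 11062 CPM in *Ptprc*-positive cells, with *Lyz2* the most abundant (56.9 and 87.6 CPM). The 4 neutrophil genes summed to 65 and 50.6 CPM (*S100a8* at 39.1 and 29.0 CPM), against 1383 and 3172 CPM. The 6 muscle genes summed to 39.3 and 49.3 CPM (*Des* at 26.7 and 31.0 CPM), against 78.2 and 34.3 CPM. The neutrophil and macrophage sums were thus far below those of *Ptprc*-positive cells, and the muscle sum was below in control and above in *Smo* cKO callus. The 5 endothelial genes summed to 8.61 and 10.9 CPM (*Egfl7* at 6.02 and 6.63 CPM), against 9.23 and 26.2 CPM. Of the 4 Schwann cell genes, the defining *Sox10* and *Cdh19* were at 0. The 5 mural genes summed to 27.6 and 19.8 CPM, against 15.7 and 23.4 CPM, mostly *Cspg4* (20.4 and 11.9 CPM), while the pericyte gene *Abcc9* stood at 1.12 and 1.57 CPM, against 36.9 and 40.5 CPM in *Sfrp4*/*Eln* cells. The 4 erythroid genes were the exception in level and summed to 753 and 1242 CPM, against 1866 and 3204 CPM in *Sfrp4*/*Eln* and 2366 and 982 CPM in *Ptprc*-positive cells, with *Hbb-bs* most abundant (391 and 662 CPM). The part of RNA from these cell types in the levels above was not tested.

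The cells were also deep. Their median was 13980 and 14624 UMIs and 3258 and 3329.5 genes, against 8600 and 9428.5 UMIs in the other connective cells. The study's own limit of 2000 genes would have removed 91.8% and 92.1% of them. Among cells of 10000 to 20000 UMIs alone, a check added after the data were seen, 28 genes were at least 2-fold higher and 96 lower, with 23 of the 35 and 86 of the 111 among them. Of the cells refused only for 5 or more cell-cycle UMIs, 635 of 1147 in the control (55.4%) and 565 of 971 in the *Smo* cKO library (58.2%) had the *Tnc*/*Inhba* set highest. With 0 UMIs of the 4 cycle genes, also added afterwards, 29 of the 35 higher genes were called again.

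The share of *Tnc*/*Inhba* cells was compared next between the genotypes. They made up 22.9% of control (95% interval 21.7 to 24.2) and 31.3% of *Smo* cKO candidates (29.6 to 33.0), a difference of 8.38 percentage points (6.29 to 10.5). The *Sfrp4*/*Eln* share differed by -0.99 points (-3.09 to 1.14), the *Fmod*/*Acan* share by 1.28 points (-0.44 to 3.03) and the share of candidates in no set by -8.68 points (-10.8 to -6.57). Of all barcodes, a denominator chosen after seeing the data, the *Tnc*/*Inhba* cells were 9.12% and 8.75%, a difference of -0.367 points (-1.13 to 0.401), since candidates were 4272 of 10747 control but 2937 of 10512 *Smo* cKO barcodes. With z-scores taken within each library the shares of candidates were 25.3% and 27.4%, a difference of 2.15 points, and with a score minimum of 0.6 they were 14.9% and 19.5%, a difference of 4.61 points. The direction depended on the denominator, and a change in the number of these cells cannot be told apart from a change in the other cells.

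The share was largest among the deepest cells. Among candidates of 5000 to 10000 UMIs it was 8.73% (control) and 14.1% (*Smo* cKO), a difference of 5.36 points (2.81 to 8.11). At 10000 to 20000 UMIs it was 36.6% and 42.6%, a difference of 5.97 points (2.40 to 9.53). At 20000 UMIs or more it was 52.2% and 54.3%, a difference of 2.07 points (-5.45 to 9.57), and at 1000 to 2000 UMIs 14.3% and 15.2%, a difference of 0.93 points (-9.54 to 11.4). These intervals are over cells and do not cover the spread between animals or libraries. Scoring after thinning to 1000 UMIs gave 18.3% and 24.1% overall. Split by depth, which was added after seeing the data, it gave 9.27% and 14.3% among cells of 5000 to 10000 UMIs and 38.1% and 36.4% at 20000 UMIs or more. Thinning kept 57.4% of the original members.

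**Figure D4:**
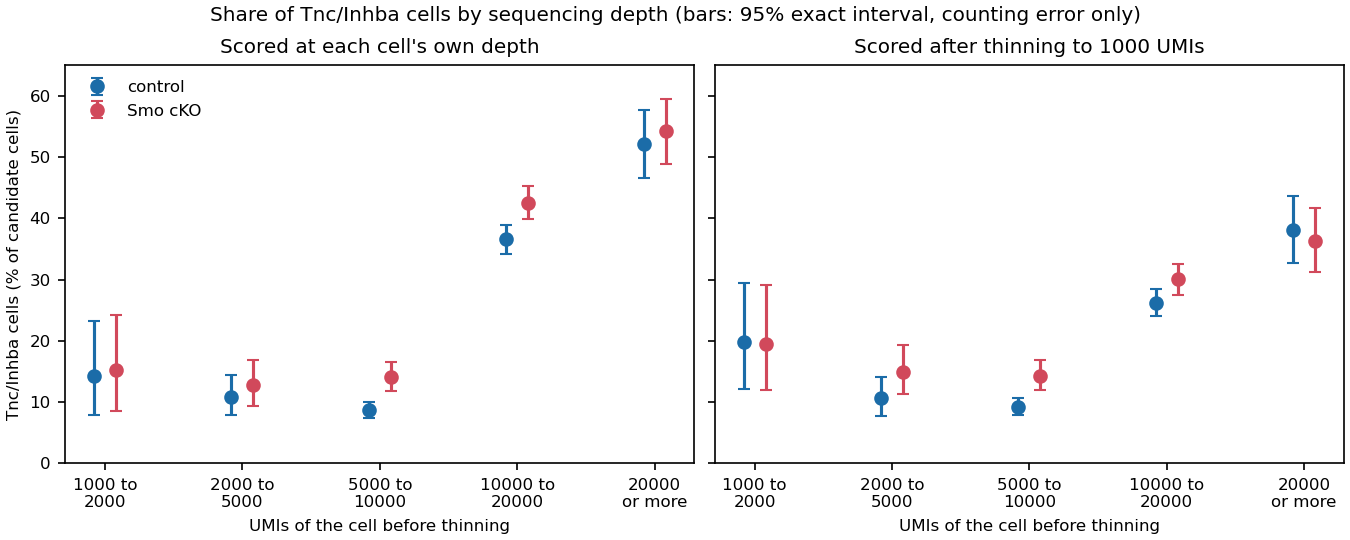
Share of candidate connective cells that were *Tnc*/*Inhba* cells (percent) by the UMIs of the cell, scored at full depth (left) and after thinning to 1000 UMIs (right), with exact 95% intervals. The control share is 8.73% at 5000 to 10000 UMIs and 52.2% at 20000 UMIs or more, and the *Smo* cKO share 14.1% and 54.3%.

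The targeted gene was low and the reporter close to the limit of detection. *Smo* stood at 17.5 and 12 CPM in the *Tnc*/*Inhba* cells, a log2 ratio of -0.55 (-0.84 to -0.26), and was detected in 212 of 980 and 153 of 920 cells. In *Ptprc*-positive cells, of lower depth, it stood at 0.54 and 1.06 CPM and was detected in 1 of 327 and 3 of 460. Counts per gene do not show whether a read came from the deleted part of *Smo*, and so they do not check the recombination. *TdTomato* was found in 9 of 980 (0.918%) and 25 of 920 cells (2.72%), against 0 of 327 (which allows a share of up to 0.917%, taken as 3 cells of 327, with an exact interval up to 1.12%) and 4 of 460 (0.870%) *Ptprc*-positive cells of lower depth. After thinning it was 0.306% and 0.217%, so that these cells could not be assigned to the *Sox9* lineage or outside it.

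Between genotypes, 2543 genes reached 50 CPM in at least 1 library of the *Tnc*/*Inhba* cells. Of these, 31 were at least 2-fold higher in *Smo* cKO (1.22%) and 2 at least 2-fold lower (0.0786%), with the median gene at a log2 ratio of 0.03. The counts became 97 and 27 with the study's range of 200 to 2000 genes, under which 340 cells were chosen, 153 of them (45%) among the 1900 here. The lower count was 7 under stricter doublet markers and 8 with 0 UMIs of the cycle genes. The 5 markers lay between -0.14 (*Aldh1a3*) and 0.08 (*Tnc*).

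The highest ratio was that of *Isg15*, an interferon-inducible ubiquitin-like protein, which stood at 10 CPM in control and 161 CPM in *Smo* cKO cells, or 4.01 on the log2 scale (3.76 to 4.26). *Ifi27l2a*, also known as interferon-inducible, stood at 19.7 and 249 CPM, *Bst2*, which tethers virus particles, at 30 and 295 CPM, *Cxcl10*, a chemokine, at 8.54 and 71.0 CPM, and *Psmb8*, a subunit of the immunoproteasome, at 22 and 74.9 CPM. *Isg15* (2.26 and 4.15), *Ifi27l2a* (1.60 and 2.56) and *Bst2* (1.72 and 1.80) were at least 2-fold higher in *Sfrp4*/*Eln* and in *Fmod*/*Acan* cells as well, whereas *Cxcl10* (0.87 and 2.35) and *Psmb8* (0.29 and 1.5) were so in the latter alone. In *Ptprc*-positive cells *Isg15* stood at 32.6 and 213 CPM, *Ifi27l2a* at 332 and 1498 CPM and *Bst2* at 236 and 437 CPM. *Cxcl10* stood there at 18.5 and 86.0 CPM and *Psmb8* at 193 and 268 CPM. The macrophage genes in *Tnc*/*Inhba* cells summed to 137 and 194 CPM. The part of RNA from other cells in these values was not tested. Also at least 2-fold higher were *B2m*, *H2-D1* and *H2-T22*. They were picked from the 31 after their values were seen, and no list of related genes was counted.

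*Ly6a*, the surface antigen Sca-1, stood at 56.3 and 254 CPM in *Tnc*/*Inhba* cells, a ratio of 2.17 (2.06 to 2.28), against -0.09 in *Sfrp4*/*Eln* and 0.50 in *Fmod*/*Acan* cells. *Sfrp4*/*Eln* cells held 284 and 266 CPM, so that the *Tnc*/*Inhba* cells lay far below them in control and near them in *Smo* cKO callus. *Ptprc*-positive cells held 19.5 and 106 CPM. *Ndufa4l2*, a mitochondrial protein known as hypoxia-responsive, stood at 44.2 and 157 CPM (1.83), *Lgals3bp* at 13.3 and 74.7 CPM (2.49) and *Cyr61*, a matricellular protein, at 33.5 and 96.3 CPM (1.52). *Gm10036*, a ribosomal protein-like locus that may share reads with its parent gene, had a ratio of 2.06, near those of the other sets (2.08 and 2.28).

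Of the 2 lower genes, *Hp* (haptoglobin) stood at 73.6 and 17.0 CPM, a ratio of -2.11 (-2.32 to -1.91), with -1.54 and -2.77 in *Sfrp4*/*Eln* and *Fmod*/*Acan* cells. *Sparcl1*, a matricellular protein, stood at 71.6 and 33.0 CPM (-1.12), and came under 2-fold with scoring at 1000 UMIs (-0.87) and with the mean over cells (-0.98). With a score minimum of 0.6, 1 of the 2 lower genes was called again. The next lowest were *Ank*, a pyrophosphate transporter, at 102 and 51.3 CPM (-0.99), *Saa3*, an acute-phase protein, at 71.8 and 43.9 CPM (-0.71, but 0.60 under stricter doublet markers), and *Prg4* (lubricin), at 247 and 151 CPM (-0.71). *Fam102b*, *Alyref*, *Mtch1*, *Pkd2* and *Arf5* had ratios of -0.68 to -0.67.

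Of 12 inflammatory genes, 12 were compared between genotypes, 1 was higher (*Ccl2*) and 0 lower, against 1.22% and 0.0786% of all genes, with a median of 0.52 against 0.03. *Ccl2*, which attracts monocytes, stood at 1112 and 2258 CPM (1.02; 0.99 to 1.05). *Il6* stood at 104 and 204 CPM (0.96), and the neutrophil chemokine *Cxcl1* at 1457 and 2418 CPM (0.73). Both were nearer to level in *Sfrp4*/*Eln* cells, at -0.23 and 0.03. Most members had *Fmod*/*Acan* as their next highest set, and the ratios of *Ccl2*, *Il6* and *Cxcl1* in that set are not listed here. Whether these rises were particular to *Tnc*/*Inhba* cells was not tested. *Cxcl5*, another neutrophil chemokine, stood at 382 and 497 CPM (0.38), against ratios of -1.44 and -0.97 in *Sfrp4*/*Eln* and *Fmod*/*Acan* cells. In *Tnc*/*Inhba* cells the macrophage genes summed to 137 and 194 CPM, the erythroid genes to 753 and 1242 CPM and the neutrophil genes to 65 and 50.6 CPM. The immediate early list had a median of 0.56 between genotypes. The part of RNA from other cells and of tissue digestion in these inflammatory values was not tested.

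*Cxcl12* stood at 96.5 and 114 CPM in *Tnc*/*Inhba* cells, a log2 ratio of 0.24 (0.13 to 0.34). In *Sfrp4*/*Eln* cells it stood at 231 and 88.1 CPM, a ratio of -1.39, and in *Fmod*/*Acan* cells at 97.5 and 68.2 CPM, a ratio of -0.52. The *Tnc*/*Inhba* cells were thus below the *Sfrp4*/*Eln* cells in control and above them in *Smo* cKO callus.

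**Figure D5:**
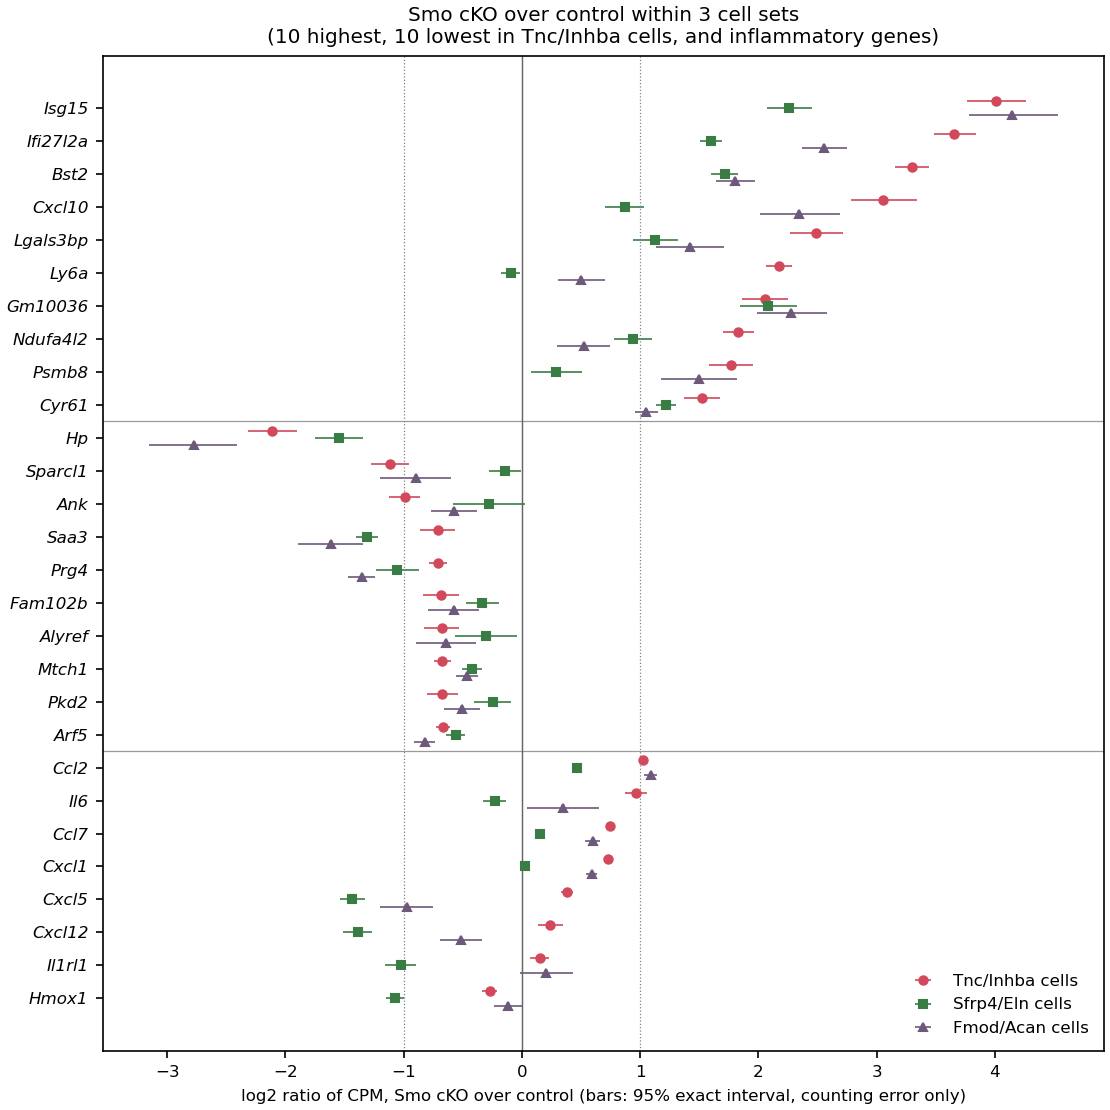
Log2 ratio of CPM in *Smo* cKO over control with exact 95% intervals, for the 10 highest and 10 lowest genes of *Tnc*/*Inhba* cells and 8 inflammatory genes, in *Tnc*/*Inhba*, *Sfrp4*/*Eln* and *Fmod*/*Acan* cells. *Isg15* lies at 4.01, 2.26 and 4.15, and *Cxcl12* at 0.24, -1.39 and -0.52.

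The immediate early list had 1 gene higher between genotypes of 10 compared (*Fos*, 69.4 and 154 CPM) and a median of 0.56, and the growth factors had 1 of 9 (*Cyr61*) and a median of 0.16. Neither list had a lower gene, and over all genes 1.22% were higher and 0.0786% lower, with a median of 0.03. The growth factor *Pdgfa* stood at 204 and 229 CPM and *Hbegf* at 96.3 and 129 CPM. The fibroblast, myofibroblast, activin, adhesive matrix, cross-linking, protease, retinoid, hypoxia and skeletal lists had 0 calls in either direction among the 9, 9, 12, 14, 12, 10, 2, 13 and 3 genes compared, with medians from -0.23 to 0.26. *Acta2* had a ratio of 0.40 (0.37 to 0.43), against 0.97 in *Sfrp4*/*Eln* cells, and *Serpinh1*, the collagen chaperone, stood at 2803 and 3396 CPM.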

How the data were processed

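Callus cells were profiled on the 10x Chromium platform, 1 library per genotype. The authors aligned reads to mm10 with Cell Ranger 3.0.2 and deposited raw UMI counts without normalization (10747 and 10512 barcodes, 105367110 and 112700220 UMIs). The marker rule used the z-score of ln(1 + 10000 × UMI/total). UMIs were summed over cells per library and given as CPM. Log2 ratios have exact conditional Poisson intervals, shares Clopper-Pearson and their differences Newcombe intervals. A gene was called at 2-fold and 50 CPM. Named genes were the 15 highest and 10 lowest over the other connective cells, the 10 highest and 10 lowest between genotypes, the rule genes, *Smo*, *TdTomato* and 19 lists, leaving out sex-linked, mitochondrial, ribosomal protein, hemoglobin and immunoglobulin genes, apart from list members. Members and lists were chosen with earlier results of these data known. *Ptprc*-positive cells had at least 2 *Ptprc* UMIs and under 1% collagen UMIs. No doublet caller was run. A stricter marker filter and the study's range of 200 to 2000 genes were tried as alternatives. The libraries shared 613 barcode sequences, 1 among the members. The fold rule was tried on simulated counts with changes larger than 2-fold and counting noise alone. The selection was tried on simulated cells of about equal depth. Neither simulation covered changes near 2-fold, the spread of depth in these cells or RNA from other cells. Python 3.11.15, numpy 2.4.6, scipy 1.17.1 and pandas 2.3.3 were used. Values of some list members are not reported here.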

Additional observations from a re-analysis of the deposited data

How the results depend on the processing

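Each genotype had 1 library, so that no replicate could be left out. No paired analysis was possible because each genotype had 1 library of pooled animals. The shares (control, *Smo* cKO, difference in points) moved to 15.4%, 26.2% and 10.8 with cells of 200 to 2000 genes, to 14.9%, 19.5% and 4.61 with a score minimum of 0.6, to 25.3%, 27.4% and 2.15 with z-scores within libraries, and to 18.3%, 24.1% and 5.85 with scoring at 1000 UMIs. They moved to 27.4% and 37.3% at a score minimum of 0.1, to 25.5% and 35.5% without *Aldh1a3*, and to 24.4% (control) without *Inhba* and 28.7% (*Smo* cKO) without *Tnc*. The control share was 21.1% under stricter doublet markers and 25.4% without the cell-cycle filter. Of settings chosen after seeing the data, 0 UMIs of the cycle genes gave 19.8% and 28.9%, and all barcodes as the denominator gave 9.12%, 8.75% and a difference of -0.367. The genes called over the other connective cells (higher, lower) went from 35 and 111 to 20 and 56 with 200 to 2000 genes, 58 and 180 at 20 CPM, and 13 and 41 at 200 CPM. Those higher were 18 after scoring at 1000 UMIs and 17 after centring (lower 139). Between genotypes, 31 and 2 became 97 and 27 with 200 to 2000 genes, 68 and 7 at 20 CPM, and 11 and 0 at 200 CPM. The lower count was 7 under stricter markers, 4 without the cell-cycle filter and 8 with 0 cycle UMIs. *Comp*, under 3 CPM in these cells, went from -1.64 to 0.40 under stricter markers. The cause of these shifts was not tested. Single genes were followed under these settings only if they were among the named highest or lowest genes or the rule genes. *Smo*, *TdTomato* and the other list members were not followed. Of these 1620 values, 1007 stayed within the counting interval of the main value and 612 did not. A further 1 past 2-fold (*Comp*, not called since it lay under 50 CPM) turned its direction. Of the 1620, 29 changed sign from a value under 2-fold, among them, between genotypes, *Fmod* (-0.49 to 1.52 with 200 to 2000 genes) and *Saa3* (-0.71 to 0.60 under stricter markers). The ratio of *Isg15* between genotypes ranged from 3.67 to 4.84 and that of *Hp* from -2.64 to -1.35. The range of 200 to 2000 genes kept 8.05% of the members, which made up 45% of the 340 cells it chose, and the stricter markers kept 29.3%, or 81.0% of 688. Of the 15 genes with the highest ratios over the other connective cells, 7 stayed at least 2-fold higher in both libraries under each setting run for them, which left no marker out, and *Pdlim1*, *Col5a3*, *Zpr1*, *Actg2*, *Bcat1*, *Thy1*, *Fdps* and *Tubb2b* came below it under at least 1, most often the range of 200 to 2000 genes. Of the 10 lowest, 7 stayed under the same settings, and *Igf1*, *Col8a2* and *1500015O10Rik* did not. Of the 10 highest between genotypes, 8 stayed under them, and *Psmb8* and *Ndufa4l2* did not.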
